A study of Mus musculus with 32 samples.

Results

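Spo11, Dmc1, Msh4, Msh5, Mlh3, Prdm9 and Hfm1 are genes that act in the making and repair of meiotic DNA breaks, and their transcripts were followed here in the fetal germ cells of mice. They were found by symbol: a probe of the array, which is a set of short oligonucleotides, was taken where the annotation of the platform gives exactly 1 gene symbol and that symbol is one of the 7. All 7 genes had such a probe, on 8 probes in total, of 19938 genes on 21789 single-gene probes and of 35556 probes in all. Hfm1 had a pair of probes, 10532072 and 10532052, and the brighter one, 10532072, stands for the gene unless the other is named.

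The 32 samples, each hybridized to a Mouse Gene 1.0 ST array, were RNA of EGFP-positive cells flow-sorted from fetal gonads at 17.5 days post coitum (dpc), and every fetus carried the OG2 transgene, in which the Oct4 promoter drives EGFP. The G1R samples were FVBxOG2 fetuses of both sexes whose mothers (G0) were gavaged daily from 12.5 dpc with 0.2 mg/kg/day of bisphenol A (BPA), 750 mg/kg/day of the plasticizer DEHP, which is di-(2-ethylhexyl) phthalate, 100 mg/kg/day of the fungicide vinclozolin (VZ) or the corn oil vehicle alone. The G2R samples were OG2xFVB male fetuses of the next generation, unexposed themselves, from the DEHP, VZ and oil lines. Each of the 11 groups had 3 arrays except the DEHP females with 2, so that 11 arrays were of females and 21 of males. Female germ cells of this age are called oocytes here and male ones prospermatogonia. BPA, DEHP and VZ are referred to together as endocrine disruptors (EDs). Nothing in the labels says that arrays of a group came from separate litters, and the p-values measure only the spread between these samples. With 2 or 3 arrays in a group, their number sets how precise a mean can be. The deposited values are log2 signals, and differences are given on that scale as the first group minus the second.

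Meiotic recombination begins when a cell entering meiosis cuts its own DNA at many places and ends with crossovers that hold each pair of homologous chromosomes together. PRDM9 marks the places by methylating histone H3 at the DNA sequences that it binds, and SPO11 cuts there. The broken ends are then led into the homologous chromosome by the recombinase DMC1, and some of the joined intermediates are protected by the MSH4-MSH5 pair, helped by the helicase HFM1, and resolved as crossovers with the help of MLH3. In the mouse ovary germ cells pass through this stage before birth, whereas in the testis they rest in the cell cycle before birth and enter meiosis only after it.

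The promoters of 5 of the 7 genes are printed to set the sequence beside a pattern described below, in which Mlh3, Msh4, Prdm9 and Hfm1 were higher in oocytes in every treatment and Dmc1 and Msh5 were not. The RefSeq table of GRCm38.p6 promoters matched 6 of the 7 genes by gene identifier, each with 300 bases from 250 before to 50 after a transcript start in the table, and of several starts the most upstream was taken. For Msh4, Msh5 and Hfm1 these 300 bases lie wholly inside the longer span that RefSeq gives the gene, so that another start may lie further upstream. Capitals mark matches on either strand to the E2F cores TCCCGC and TGGCGC, which were chosen with these sequences in view; the E-box CACGTG was searched as well and is in none of the 6.

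Mlh3 (GRCm38.p6, chr12:85270550-85270849, minus strand): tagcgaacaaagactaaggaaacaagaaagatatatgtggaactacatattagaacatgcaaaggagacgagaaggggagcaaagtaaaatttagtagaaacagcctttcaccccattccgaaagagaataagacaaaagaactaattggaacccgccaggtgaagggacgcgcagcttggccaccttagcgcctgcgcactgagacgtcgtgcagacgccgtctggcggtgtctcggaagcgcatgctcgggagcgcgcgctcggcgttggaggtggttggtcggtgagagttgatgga
Msh4 (GRCm38.p6, chr3:153904842-153905141, minus strand): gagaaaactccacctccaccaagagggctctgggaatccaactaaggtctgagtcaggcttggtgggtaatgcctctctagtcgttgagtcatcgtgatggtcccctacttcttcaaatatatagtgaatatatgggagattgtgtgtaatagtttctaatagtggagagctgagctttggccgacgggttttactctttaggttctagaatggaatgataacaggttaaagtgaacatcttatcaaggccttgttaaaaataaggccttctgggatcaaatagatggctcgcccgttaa
Prdm9 (GRCm38.p6, chr17:15564305-15564604, minus strand): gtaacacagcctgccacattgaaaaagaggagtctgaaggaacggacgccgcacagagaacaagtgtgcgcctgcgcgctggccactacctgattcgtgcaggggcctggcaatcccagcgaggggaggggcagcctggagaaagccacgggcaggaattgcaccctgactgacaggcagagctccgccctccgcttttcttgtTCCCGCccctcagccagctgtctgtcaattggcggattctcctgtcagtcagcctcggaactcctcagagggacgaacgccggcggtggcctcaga
Dmc1 (GRCm38.p6, chr15:79605060-79605359, minus strand): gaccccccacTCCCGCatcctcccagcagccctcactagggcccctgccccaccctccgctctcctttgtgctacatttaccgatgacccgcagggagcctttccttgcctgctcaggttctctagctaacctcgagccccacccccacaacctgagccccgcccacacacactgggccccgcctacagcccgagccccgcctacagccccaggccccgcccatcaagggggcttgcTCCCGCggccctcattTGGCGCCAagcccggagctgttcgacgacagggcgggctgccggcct
Msh5 (GRCm38.p6, chr17:35046573-35046872, minus strand): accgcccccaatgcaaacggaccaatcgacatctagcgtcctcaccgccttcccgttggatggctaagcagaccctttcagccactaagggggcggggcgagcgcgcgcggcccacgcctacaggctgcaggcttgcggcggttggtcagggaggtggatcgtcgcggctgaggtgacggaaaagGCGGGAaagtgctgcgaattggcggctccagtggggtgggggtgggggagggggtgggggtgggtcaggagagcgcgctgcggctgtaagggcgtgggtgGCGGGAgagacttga

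The presence of an E2F core did not sort the genes by their pattern (GCGGGA is TCCCGC read on the opposite strand). By number of matches, Dmc1 and Msh5 hold more than Mlh3, Msh4, Prdm9 and Hfm1. The cores were chosen with these sequences in view, and a link to the pattern was not tested. Mlh3 and Msh4 hold neither core, Prdm9 and Hfm1 hold TCCCGC once, Msh5 holds TCCCGC at 2 places, and Dmc1 holds each core at 2 places, counted over both strands (its TGGCGC matches overlap each other on opposite strands). Of all 27025 promoters of the same length, 20.1% hold TCCCGC, 12.7% hold TGGCGC and 7.2% hold CACGTG. The number of CpG dinucleotides was 6 for Msh4, 18 for Prdm9 and for Dmc1, 22 for Mlh3, 27 for Msh5 and 41 for Hfm1, against a median of 7 over all promoters. A match of letters is a description of the sequence and not a measured binding site.

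All 8 probes gave signal. In every group the mean of each lay above a log2 signal of 6.89, the 95th percentile of 1023 olfactory receptor probes, which served as a measure of low signal. The sex labels matched the Y-linked genes, 4 of 4 of which were lower in oil oocytes than in oil prospermatogonia. Of 8 germ cell markers 3 were higher and 2 lower in oil oocytes than in oil prospermatogonia. Mael had a mean signal of 13.15 in oil oocytes and of 13.15 in oil prospermatogonia, Ddx4 had 11.59 in oil oocytes and 11.62 in oil prospermatogonia, and Dazl had 12.73 in oil oocytes and 12.36 in oil prospermatogonia. Pou5f1, which encodes Oct4, had 7.65 in oil oocytes and 10.83 in oil prospermatogonia, and Dppa3 had 11.01 in oil oocytes and 7.31 in oil prospermatogonia. Dnd1 had 6.89 in oil oocytes, at the limit of low signal, and 8.35 in oil prospermatogonia. The labels call all cells primordial germ cells. Of 8 genes listed as markers of meiotic prophase 6 were higher in oil oocytes than in oil prospermatogonia, led by Sycp3 (2.97), Sycp1 (2.85) and the cohesin gene Smc1b (2.54). The other two were lower, Rec8 by a difference of -1.65 and the meiotic entry gene Stra8 by -0.38, and Stra8 had mean signals of 5.20 and 5.58 in oil oocytes and oil prospermatogonia, below the limit. Some markers of somatic cells moved with sex as well. In oil oocytes 6 of 6 endothelial, 3 of 8 Sertoli and 2 of 4 fetal Leydig cell markers were lower. Also lower were 2 of 4 blood and 3 of 7 granulosa cell markers, and 1 granulosa marker was higher. Over all probes 25.6% were lower and 28.7% higher in oil oocytes. In each of these lists of somatic markers the part that was lower exceeded the share over all probes, most for the endothelial ones. The lists are short. The summed endothelial signal of an array, in log2, was 9.21 to 9.48 in oil oocytes and 10.80 to 10.90 in oil prospermatogonia. The part of other cells in the results below was not tested. In a sorted sample, fewer expressing cells and less RNA per cell cannot be told apart.

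The first comparison asks how the genes differ between the sexes without any ED. In the oil controls 5 of the 7 genes were higher in oocytes than in prospermatogonia, none was lower, and Dmc1 and Msh5 did not pass the test (limma, adjusted p under 0.05 over all probes). Over all probes 28.7% were higher and 25.6% lower by the same call, and the 5 of 7 are read against that share. The median difference of the 7 genes was 0.94, against -0.01 over the single-gene probes. For 5 of the 7 all oocyte arrays lay above all prospermatogonia arrays, as for 31.4% of all probes.

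Prdm9 (probe 10448064; chr17:15543072-15564374 in the RefSeq annotation of GRCm38.p6, as for the positions that follow), whose product marks the sites of the breaks by methylating histone H3, had log2 signals of 9.18, 9.15 and 9.04 in oil oocytes and of 8.24, 8.16 and 8.15 in oil prospermatogonia. Every oocyte array lay above every prospermatogonia array. The difference was 0.94 (SE 0.10, adjusted p = 1.24e-08, n = 3 each), a 1.92-fold higher signal in oocytes.

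Spo11 (probe 10479010; chr2:172977379-172993576), which encodes the catalytic subunit that cuts the DNA, had 9.62, 9.88 and 9.75 in oil oocytes and 9.35, 9.30 and 9.33 in oil prospermatogonia. The groups did not overlap, and the difference was 0.42 (SE 0.12, adjusted p = 0.00549). This call depended on the normalization: after cyclic loess between the arrays the difference was 0.17 and no longer passed (adjusted p = 0.26).

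Dmc1 (probe 10430555; chr15:79561497-79605159), the recombinase that works only in meiosis, had 8.50, 8.79 and 8.73 in oil oocytes and 8.32, 8.44 and 8.63 in oil prospermatogonia. Here the lowest oocyte array lay within the range of the prospermatogonia. The difference of 0.21 (95% interval -0.13 to 0.55) did not pass the test (adjusted p = 0.287). Dmc1 was also the least steady of the 7 genes between arrays of a group, with a pooled SD of 0.209 within groups, against a median of 0.136 over the single-gene probes.

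Msh4 and Msh5 encode both parts of a clamp that holds recombination intermediates, and their transcripts differed in their pattern. Msh4 (probe 10502904; chr3:153857141-153906138) had 9.56, 9.76 and 9.64 in oil oocytes and 8.40, 8.42 and 8.49 in oil prospermatogonia. Its groups lay more than 1 log2 unit apart, with a difference of 1.22 (SE 0.10, adjusted p = 1.68e-10), or 2.33-fold. Msh5 (probe 10450384; chr17:35028605-35046997) had 7.51, 7.78 and 7.65 in oil oocytes and 7.86, 7.79 and 7.75 in oil prospermatogonia. The arrays of Msh5 overlapped between the sexes, and its difference of -0.15 (95% interval -0.41 to 0.10) did not pass (adjusted p = 0.306). Msh5 was the only one of the 7 with a negative difference in the oil controls.

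Hfm1 (chr5:106840193-106926712), a helicase gene needed for most crossovers, had 10.38, 10.70 and 10.47 in oil oocytes and 9.02, 9.31 and 9.30 in oil prospermatogonia at probe 10532072. The sexes were apart on every array, with a difference of 1.31 (SE 0.12, adjusted p = 6.06e-10). At probe 10532052 oil oocytes had 10.07, 10.27 and 10.07 and oil prospermatogonia had 8.47, 8.78 and 8.65, a difference of 1.5 (SE 0.12, adjusted p = 3.15e-11), so that both probes gave the same direction.

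Mlh3 (probe 10401616; chr12:85234466-85270647), which encodes a part of the endonuclease that resolves crossovers, had the largest sex difference of the 7. Its signals were 10.11, 10.13 and 10.11 in oil oocytes and 8.29, 8.23 and 8.01 in oil prospermatogonia. The difference was 1.94 (SE 0.084, adjusted p = 4e-16), or 3.84-fold, and lay at the 98.2 percentile of the differences of all single-gene probes. Mlh3 was the steadiest of the 7 genes as well, with a pooled SD within groups of 0.0938.

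**Figure D1:**
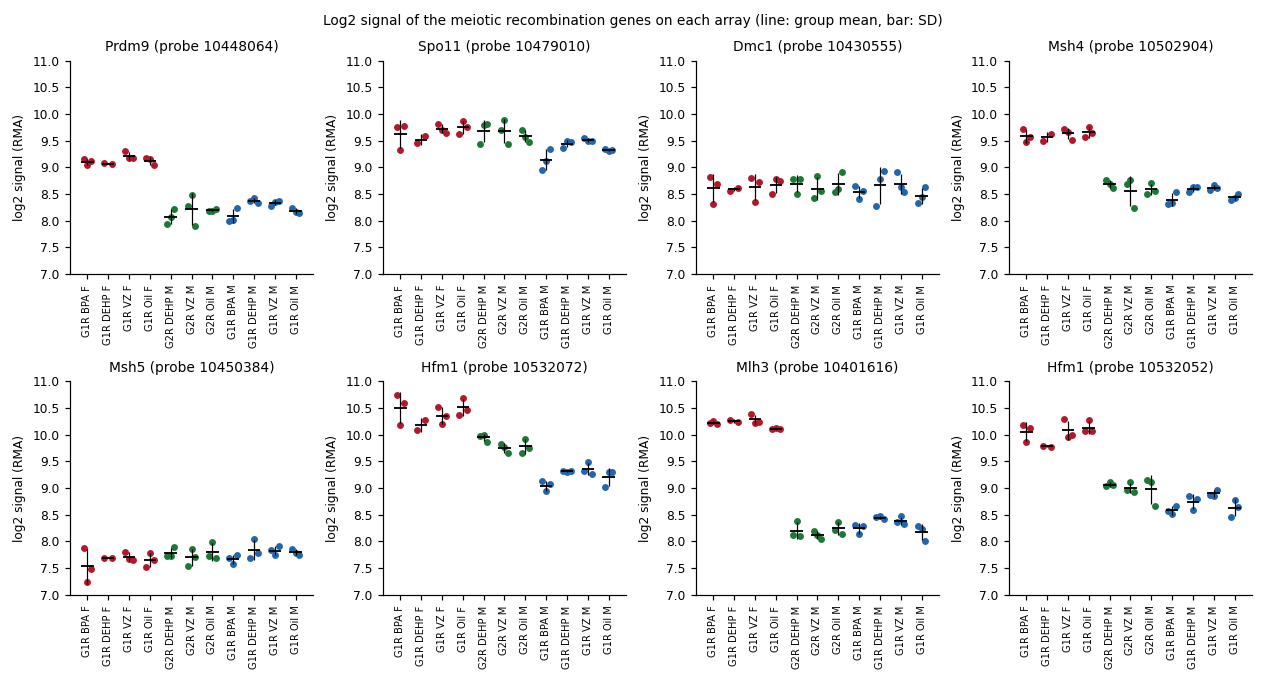
Log2 signal (vertical axes, RMA) of the 7 genes on each of the 32 arrays, with a panel for each of the 8 probes and the 11 groups along the horizontal axes (red, G1R females; green, G2R males; blue, G1R males; points, arrays; horizontal line, group mean; vertical bar, SD). Prdm9, Msh4, Hfm1 and Mlh3 form a high female and a low male band, Dmc1 and Msh5 do not, and for Hfm1 at probe 10532072 the G2R males stand between 9.65 and 10.00.

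The sex comparison was repeated within each ED, and Prdm9, Msh4, Hfm1 and Mlh3 were higher in oocytes in all of them. With BPA 5 of 7 genes were higher, against 30.6% of all probes. With DEHP 4 of 7 were higher, against 28.5% of all probes, and with VZ 4 of 7, against 31% of all probes. In limma 0 of the 7 were lower under any ED, also at an unadjusted p under 0.05, whereas 25.1% of all probes were lower with BPA, 23.6% with DEHP and 24.5% with VZ.

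Mlh3 had log2 signals of 10.23, 10.26 and 10.19 in BPA oocytes and of 8.31, 8.13 and 8.29 in BPA prospermatogonia. It had 10.28 and 10.24 in DEHP oocytes, against 8.45, 8.48 and 8.42 in DEHP prospermatogonia. It had 10.39, 10.23 and 10.24 in VZ oocytes, against 8.36, 8.47 and 8.33 in VZ prospermatogonia. No female array of any treatment came near a male one. The differences were 1.98 with BPA, 1.81 with DEHP and 1.90 with VZ (adjusted p of 1.83e-14 or less).

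For Msh4 the differences were 1.18 with BPA, 0.96 with DEHP and 1.02 with VZ, for Prdm9 they were 1.02, 0.70 and 0.88, and for Hfm1 1.46, 0.87 and 1.00. All of these passed the test, with adjusted p of 9.27e-06 or less, and none of their arrays overlapped between the sexes, as for 33.8% of all probes, counted in the higher direction, with BPA, 38.7% with DEHP and 36.7% with VZ. For these 3 genes the difference was smallest with DEHP, a group with 2 female arrays. Whether an ED altered the sex difference was asked by the sex by treatment terms, and 0 of the 7 genes passed in any of the 3 (0% of all probes passed). At an unadjusted p under 0.05 the count in limma was 0 with BPA, 1 with DEHP and 0 with VZ, against 4.84%, 7.47% and 6.21% of all probes. The lowest was Hfm1 with DEHP, at -0.43 (95% interval -0.80 to -0.06), with an unadjusted p = 0.0237 and an adjusted p = 0.612 in limma.

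Spo11 had 9.76, 9.32 and 9.78 in BPA oocytes and 8.96, 9.13 and 9.34 in BPA prospermatogonia. A single array of BPA oocytes lay within the range of the males, and the difference of 0.48 passed (adjusted p = 0.00198) but did not after cyclic loess (0.21, adjusted p = 0.18). With DEHP Spo11 had 9.45 and 9.59 in oocytes and 9.37, 9.48 and 9.47 in prospermatogonia, and with VZ it had 9.81, 9.71 and 9.65 in oocytes and 9.55, 9.48 and 9.49 in prospermatogonia. Neither difference passed, at 0.08 with DEHP (95% interval -0.21 to 0.36, adjusted p = 0.671) and 0.21 with VZ (95% interval -0.04 to 0.47, adjusted p = 0.153). That Spo11 passed with oil and BPA and not with DEHP and VZ is not shown to be a difference between treatments, since its sex by treatment terms with DEHP (-0.35, adjusted p = 0.708) and VZ (-0.21, adjusted p = 0.876) did not pass.

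Dmc1 and Msh5 passed under no ED. The differences of Dmc1 were 0.08 with BPA, -0.07 with DEHP and -0.07 with VZ, and those of Msh5 were -0.13, -0.15 and -0.12. The sign of Msh5 was thus negative in all 4 treatments. For Msh5 with BPA a single array decided the call: without BPA female replicate 1, which had 7.88 against 7.24 and 7.48 in the other two, the difference was -0.31 and passed as lower (adjusted p = 0.0285). Sertoli and fetal Leydig cell markers also set the BPA sexes apart. Of them 8 of 8 and 2 of 4 were lower in BPA oocytes, against 25.1% of all probes. The summed Sertoli signal was 9.49 to 9.69 in BPA oocytes and 10.35 to 12.08 in BPA prospermatogonia.

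**Figure D2:**
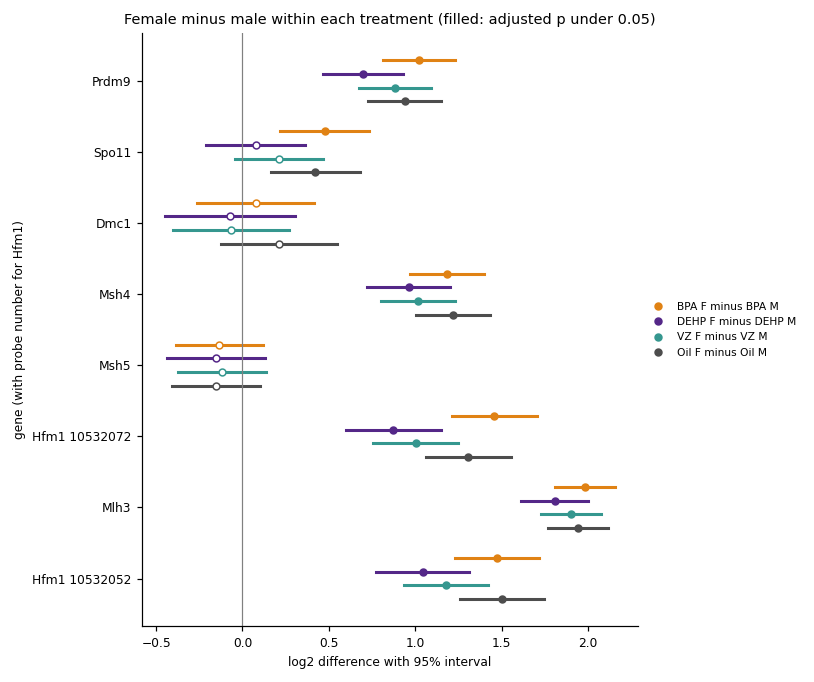
Oocytes minus prospermatogonia within each treatment, as a log2 difference (horizontal axis) with its 95% interval, for the 7 genes and the further probe of Hfm1 down the vertical axis (colours, treatments; filled points, adjusted p under 0.05). Mlh3 lies near 1.9 in every treatment, Prdm9, Msh4 and Hfm1 between 0.70 and 1.5, and the intervals of Dmc1 and Msh5 all cross 0.

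The other genes of the pathway were taken from lists by step, and at most steps more of them were higher in oil oocytes than lower. Over all probes 28.7% were higher and 25.6% lower, and the counts at every step are read against these shares. Of 7 measured genes of break formation and hotspots 3 were higher and 1 lower, with a median difference of 0.10. Hells, which works with PRDM9 to open chromatin, was higher by 1.05, Mei1, needed for the breaks, by 0.86, and Mei4, of the break-forming machinery, by 0.36. Iho1, of the same machinery, was lower (-1.27, adjusted p = 2.92e-09), with a mean of 6.49 in oil oocytes, below the limit of low signal, and of 7.76 in oil prospermatogonia. Spo11 and the genes whose products work with it thus had differences of both signs.

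Of 16 genes of resection and signalling 10 were higher and 3 lower (median 0.49). The checkpoint gene Topbp1 was higher by 1.78, the exonuclease gene Exo1 by 1.46 and Rad1, a part of a checkpoint clamp, by 1.30, whereas Nbn, of the complex that trims the ends, was lower (-0.93). Of 24 genes of strand exchange 18 were higher and 3 lower (median 0.72). Meiob and Spata22, whose products bind single-stranded DNA together, were higher by 2.79 and 1.89 and the helicase gene Mcm8 by 1.5, and Rad51c was lower (-1.28). Dmc1, with a difference of 0.21, therefore stood below the median of the genes at its own step.

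Of 12 genes of crossover designation and resolution 10 were higher and 2 lower, with a median of 1.06. Ccnb1ip1, a gene of crossover designation, was higher by 1.99, Cntd1, of crossover maturation, by 1.68, and the nuclease genes Eme1 and Gen1 by 1.44 and 1.4. Another list held helicases and topoisomerases that act on joined molecules, and not all of its genes encode such an enzyme. Of its 12 genes 8 were higher and 0 lower (median 0.80). At an unadjusted p under 0.05 limma gave 8 of 12, against 58.7% of all probes. The higher ones included Fanci (1.46), Recql (1.09), Rmi1 (1.01) and Recql5 (0.82), and Fanci and Rmi1 encode neither enzyme. Mlh3, Msh4 and Hfm1 belong to this end of the pathway, and so does Msh5, which did not pass (-0.15). The mismatch repair relatives moved less than Mlh3, Msh4 and Hfm1. Pms2, a mismatch repair gene, was higher by 0.43 and Msh6 by 0.33, whereas Pms1 (0.16) and Msh3 (0.02) did not pass.

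**Figure D3:**
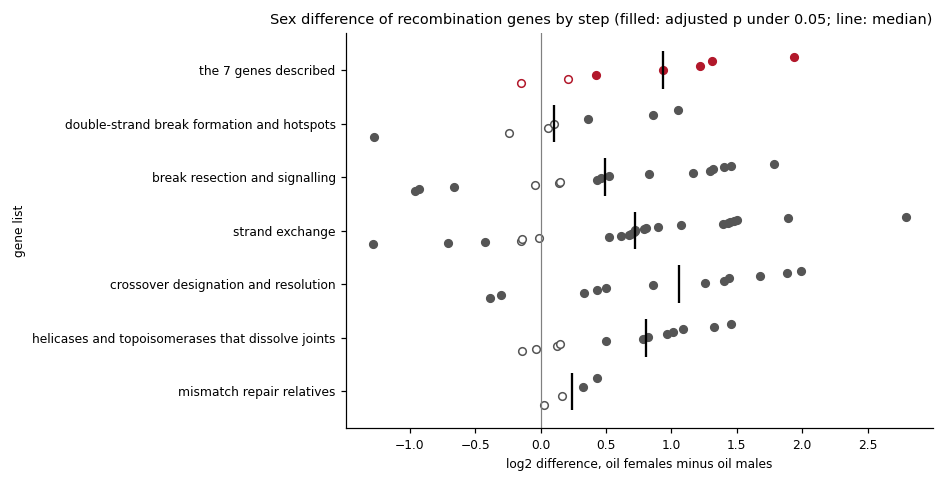
Log2 difference of oil oocytes minus oil prospermatogonia (horizontal axis) for the 7 genes (red) and for the measured genes of 6 lists by step of recombination (grey), with a row per list (point, gene; filled, adjusted p under 0.05; vertical line, median). The medians run from 0.10 for break formation to 1.06 for crossover designation, and the 7 genes spread from -0.15 to 1.94.

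Genes whose 11 group means came closest to those of a member, each centred on its own mean, were listed as a description, since all points share the same arrays and sex sets most of the pattern. For Mlh3 they were Gid4 (root mean square difference 0.044 log2 units), 4931406C07Rik (0.050) and Mvb12b (0.052). For Msh4 they were Hectd4 (0.041), Taf7l2 (0.045) and Trim39 (0.050), and for Prdm9 Mrtfb (0.054), Dctn3 (0.056) and Ccdc68 (0.062). The patterns of Spo11 and Hfm1 had Zmym6 (0.059), Chd7 (0.071) and Dgke (0.071) for Spo11 and Uqcr11 (0.086), Scaper (0.101) and Shprh (0.108) for Hfm1 nearest to them. None of the 15 is a member or on the lists by step.

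The second comparison asks whether the EDs changed these genes against oil, in the exposed generation and in the next. In none of the 8 comparisons did any of the 7 genes pass. Over all probes 0% passed in BPA, DEHP and VZ oocytes, in BPA prospermatogonia and in both G2R comparisons, and 0.00562% in DEHP and in VZ prospermatogonia. The 56 differences ran from -0.33 to 0.27, 3 of them had an unadjusted p under 0.05, and the smallest adjusted p in limma was 0.153. Of all probes 4.56% had an unadjusted p under 0.05 in BPA, 6.28% in DEHP and 5.96% in VZ oocytes, 6.96% in BPA, 14.4% in DEHP and 18.3% in VZ prospermatogonia, and 6.91% in the DEHP and 5.41% in the VZ line of G2R. The 95% intervals of the 56 differences reached from -0.60 at the lowest to 0.56 at the highest. They differed in width between the genes, and for each gene a change within its own interval is not excluded.

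In prospermatogonia exposed to DEHP or VZ all 7 genes had a positive difference from oil. The median over the 7 was 0.16 with DEHP and 0.18 with VZ, against -0.01 over the single-gene probes in both. The arrays of 4 genes, Spo11, Msh4, Mlh3 and Prdm9, lay entirely above those of oil in both comparisons. Over all probes 9.81% did so with DEHP and 12.7% with VZ. The comparisons share their oil arrays. The Y-linked genes had positive differences in the same samples, with a median of 0.37 with DEHP and 0.36 with VZ over 4 genes, none of which passed in limma (1 with DEHP and 0 with VZ at an unadjusted p under 0.05).

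Mlh3 came closest to a change. It had 8.45, 8.48 and 8.42 in DEHP and 8.36, 8.47 and 8.33 in VZ prospermatogonia, against 8.29, 8.23 and 8.01 in oil. Replicate 3 of the oil males was the lowest of all 9. The difference was 0.27 with DEHP (95% interval 0.10 to 0.45, adjusted p = 0.153) and 0.21 with VZ (0.04 to 0.38, adjusted p = 0.188). In oocytes Mlh3 also had positive differences from oil, of 0.11 with BPA, 0.14 with DEHP and 0.17 with VZ, and none of them passed.

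Prdm9 had 8.36, 8.43 and 8.33 in DEHP and 8.28, 8.35 and 8.37 in VZ prospermatogonia, against 8.24, 8.16 and 8.15 in oil. The ED arrays were all above the oil arrays by a small step, with differences of 0.19 (adjusted p = 0.4) and 0.15 (adjusted p = 0.444). Msh4 had 8.54, 8.63 and 8.63 with DEHP and 8.57, 8.66 and 8.62 with VZ, against 8.40, 8.42 and 8.49 in oil. Its differences of 0.16 and 0.18 did not pass either.

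BPA prospermatogonia went the other way for 5 of the 7 genes, with a median of -0.10, and for none did the difference pass. The lowest was Spo11 at -0.18 (adjusted p = 0.842). Its arrays had 8.96, 9.13 and 9.34 in BPA prospermatogonia, against 9.35, 9.30 and 9.33 in oil, and they were spread far more widely with BPA. Sertoli and fetal Leydig cell markers had positive differences in the same samples, with medians of 0.66 over 8 genes and 0.79 over 4. None of them passed in limma, and 7 of the 8 and 1 of the 4 had an unadjusted p under 0.05.

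In oocytes the largest difference was that of Hfm1 with DEHP. Its signals were 10.09 and 10.28 in DEHP oocytes and 10.38, 10.70 and 10.47 in oil oocytes at probe 10532072. Both DEHP arrays lay below the 3 of oil, a lack of overlap seen for 22.3% of all probes, and the difference was -0.33 (95% interval -0.60 to -0.05, adjusted p = 0.76). At probe 10532052 it was -0.35 (adjusted p = 0.746). The prophase marker genes in the same oocytes had a median of -0.20 over 8 genes, and none passed in limma (2 at an unadjusted p under 0.05).

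**Figure D4:**
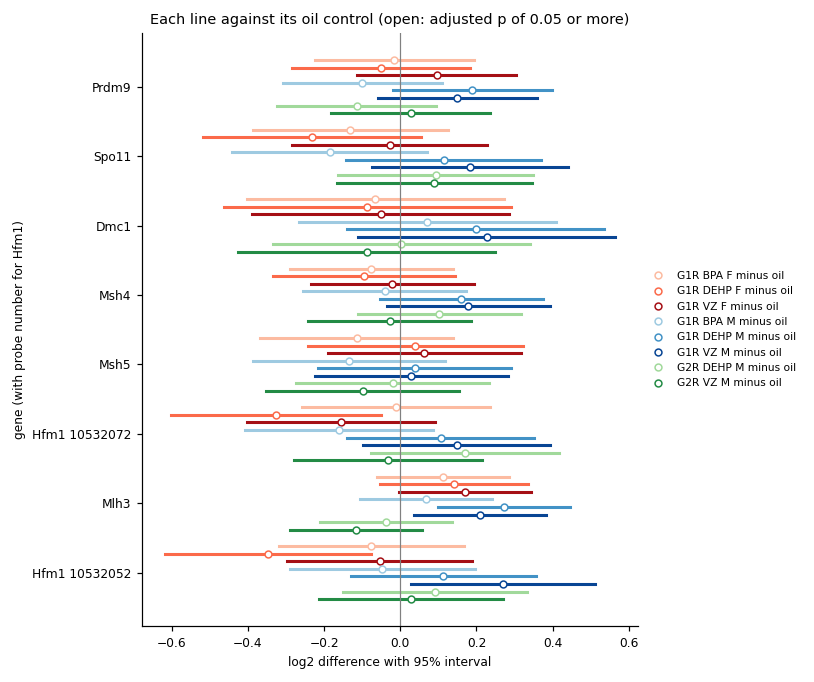
ED minus oil within sex and generation, as a log2 difference (horizontal axis) with its 95% interval, for the 7 genes and the further probe of Hfm1 down the vertical axis (red shades, G1R females; blue shades, G1R males; green shades, G2R males; open points, adjusted p of 0.05 or more). All points are open and lie between -0.35 and 0.27.

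In G2R prospermatogonia the 7 genes differed from G2R oil by -0.11 to 0.17 in the DEHP line and by -0.12 to 0.09 in the VZ line, and the arrays of 0 of the 7 genes were separated from those of oil (9.69% of all probes with DEHP and 10% with VZ). Spo11, for example, had 9.44, 9.79 and 9.81 in the DEHP line and 9.71, 9.89 and 9.43 in the VZ line, against 9.71, 9.58 and 9.48 in the oil line. The 3 lines overlapped throughout. The generation by treatment terms, which set the difference from oil in G2R against that in G1R, passed for 0 of the 7 genes with DEHP and with VZ (0% of all probes in both). At an unadjusted p under 0.05 limma gave 2 with DEHP and 1 with VZ, against 13.3% and 16.2% of all probes. Those of Mlh3 were -0.31 with DEHP (adjusted p = 0.261) and -0.33 with VZ (adjusted p = 0.195).

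The third comparison sets G2R against G1R prospermatogonia. Hfm1 was the only one of the 7 genes to pass, higher in G2R in all 3 lines. It was 1 of 7 genes in each, against 5% of all probes that were higher with oil, 6.91% with DEHP and 2.98% with VZ, and 5.3%, 7.56% and 4.78% of all probes were lower. Generation cannot be told apart from the direction of the cross or from the run of the arrays, which both differ between G1R and G2R.

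Hfm1 had log2 signals of 9.66, 9.93 and 9.76 in G2R oil and of 9.02, 9.31 and 9.30 in G1R oil prospermatogonia. It had 9.99, 10.00 and 9.87 in G2R DEHP, against 9.31, 9.30 and 9.32 in G1R DEHP prospermatogonia. It had 9.82, 9.78 and 9.65 in G2R VZ, against 9.31, 9.48 and 9.27 in G1R VZ prospermatogonia. In each line all G2R arrays were above all G1R arrays, as for 14.3% of all probes with oil, 13.9% with DEHP and 12.4% with VZ. The differences were 0.58 with oil (SE 0.12, adjusted p = 0.00472), 0.64 with DEHP (adjusted p = 0.000882) and 0.40 with VZ (adjusted p = 0.0423), and the call with VZ was lost when any one of G1R VZ replicates 1, 2 and 3 or G2R VZ replicates 1, 2 and 3 was left out (adjusted p of 0.0507 to 0.146). In a model of only the arrays compared, the adjusted p was 0.0545 with oil and 0.0877 with VZ.

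The pair of Hfm1 probes disagreed in the size of this difference. At probe 10532052 G2R oil prospermatogonia had 9.16, 9.11 and 8.66 and G1R oil ones had 8.47, 8.78 and 8.65, so that G2R replicate 3 lay at the level of G1R. The differences were 0.34 with oil (adjusted p = 0.0603), 0.32 with DEHP (adjusted p = 0.0662) and 0.10 with VZ (adjusted p = 0.666). None of the 3 passed. Without G2R oil replicate 3 the difference with oil at this probe was 0.50 (adjusted p = 0.0121). With all groups in order of their means, the highest for Hfm1 at probe 10532072 were the 4 of oocytes (10.19 to 10.51), then the 3 of G2R prospermatogonia (9.75 to 9.95) and then the 4 of G1R prospermatogonia (9.05 to 9.35), with no overlap of arrays between these 3 sets of groups.

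Mlh3 and Prdm9 had differences of the opposite sign in the ED lines. Mlh3 had 8.12, 8.38 and 8.11 in G2R DEHP, against 8.45, 8.48 and 8.42 in G1R DEHP prospermatogonia, a difference of -0.24 (adjusted p = 0.0522). It had 8.20, 8.13 and 8.05 in G2R VZ, against 8.36, 8.47 and 8.33 in G1R VZ prospermatogonia, a difference of -0.26 (adjusted p = 0.0584). Prdm9 had 7.93, 8.07 and 8.23 in G2R DEHP, against 8.36, 8.43 and 8.33 in G1R DEHP prospermatogonia, a difference of -0.29 (adjusted p = 0.0518). The arrays did not overlap in these 3 cases, as for 29% of all probes with DEHP and 27.1% with VZ, counted in both directions. With a filter on dim probes all 3 passed as lower (adjusted p = 0.0359 for Mlh3 and 0.0356 for Prdm9 with DEHP, 0.0384 for Mlh3 with VZ). For Prdm9 in the VZ line the difference was -0.11, did not pass, and the arrays overlapped. In the oil line the differences were 0.07 for Mlh3 and 0.01 for Prdm9. The other 4 genes did not pass in any line. Among them Spo11 had differences of 0.26 with oil, 0.24 with DEHP and 0.17 with VZ, and its G2R oil arrays lay above those of G1R oil. The same held for Msh4 with oil (0.15), and for 14.3% of all probes. The differences of Msh5 ran from -0.12 to 0.00.

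Some other genes of recombination were also higher in G2R oil than in G1R oil prospermatogonia. Over all probes 5% were higher and 5.3% lower there, and the counts are read against these shares. Of the lists by step, 6 of 16 genes of resection and signalling and 5 of 24 of strand exchange were higher. So were 2 of 12 of crossover designation and 1 of 7 of break formation, and no gene of these lists was lower. In the list with the helicases and topoisomerases 2 of 12 were higher and 1 was lower. Spata22 was higher by 0.53, Mcm8 by 0.48, Ccnb1ip1 by 0.39 and Rad51c by 0.37, whereas Rmi1 was lower (-0.32). In the VZ line 0 of the 16 genes of resection and signalling passed (6 had an unadjusted p under 0.05 in limma). There 2 of 12 genes of crossover designation, Gen1 and Cntd1, were lower (-0.46 and -0.45). Over all probes of that comparison 2.98% were higher and 4.78% lower, and 22.4% had an unadjusted p under 0.05. Of the 8 prophase markers 2 were higher in G2R oil. None of the 6 endothelial and 8 Sertoli cell markers passed with oil in limma (0 and 1 at an unadjusted p under 0.05).

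**Figure D5:**
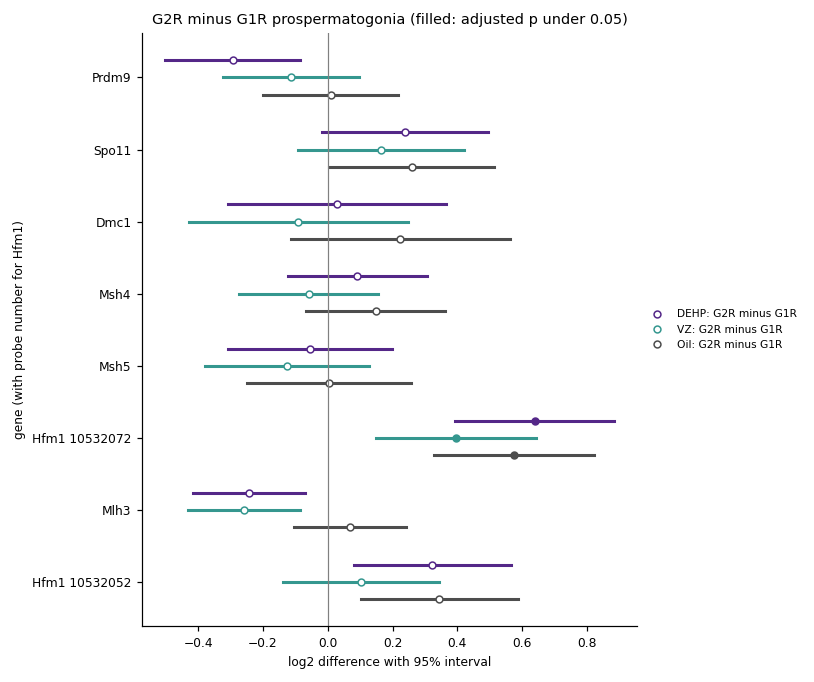
G2R minus G1R prospermatogonia in the DEHP, VZ and oil lines, as a log2 difference (horizontal axis) with its 95% interval, for the 7 genes and the further probe of Hfm1 down the vertical axis (colours, lines; filled points, adjusted p under 0.05). Only Hfm1 at probe 10532072 has filled points (0.40 to 0.64), and Mlh3 and Prdm9 have their lowest values in the ED lines.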

How the data were processed

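The 32 arrays, in 11 groups, measured RNA from sorted germ cells of fetuses. The authors normalized the arrays by RMA in Partek (versions not given in the sources used here), and the deposited values are log2 signals from 2.59 to 14.82, with array medians of 7.29 to 7.5. No array was left out, and no pair was identical (highest correlation 0.993). With limma 3.58.1 (R 4.3.3) a mean per group was estimated for all 35556 probes (21 residual and 3.67 prior degrees of freedom), tested on simulated data, with Benjamini-Hochberg adjustment over all probes at a threshold of 0.05 in 20 comparisons. A gene of several probes was represented by the one with the highest mean. Besides the 7 genes, the text names up to 4 genes of each list with the smallest p in oil females against oil males, the mismatch repair relatives and the 3 genes most like each member that passed there; the marker genes were named after their values were seen. The members and lists were chosen with earlier results of these data known. The annotation gives several genes for 1621 probes and has no entry for 12146. Replicate numbers are not known to pair the samples and were not used as pairs in the main fit. The alternatives were an unmoderated contrast, only the arrays compared, a filter on dim probes, single-gene probes, cyclic loess, array weights, a 1.5-fold minimum, a block on replicate number and leaving out each array.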

Additional observations from a re-analysis of the deposited data

How the results depend on the processing

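Of 2456 values of single genes recomputed under the alternatives, 2417 kept their side of the threshold, 15 lost a call, 24 gained one and 0 called values changed sign, whereas 124 values that had not passed changed sign. The count of genes that passed moved by over 1.5 times only between the generations. With DEHP (1 gene) it was 3 with an unmoderated contrast, with the filter on dim probes, with single-gene probes, with cyclic loess and with array weights, since Mlh3 and Prdm9 then passed as lower, and 1 to 2 with an array left out. With VZ (1 gene) it was 2 with the unmoderated contrast, the filter on dim probes and cyclic loess, and 0 with only the arrays compared, with a 1.5-fold minimum or without any one of its 6 arrays. With oil (1 gene) it was 0 with only the arrays compared and with a 1.5-fold minimum. With the replicate number as a block, which is not known to pair the samples (correlations of same-numbered arrays from -0.354 to 0.131), the count was 2 with DEHP, and with VZ Mlh3 passed (adjusted p = 0.0485) and Hfm1 did not (adjusted p = 0.0552); no other count moved. The further probe of Hfm1 passed as higher between the generations with the filter on dim probes (adjusted p = 0.0432 with oil and 0.0466 with DEHP) and with single-gene probes (0.0447 and 0.0489). Spo11 lost its sex difference with oil and BPA after cyclic loess and with a 1.5-fold minimum. The size of the other sex differences with oil moved as well. Among the alternatives that left out no single array, the lowest were 1.70 for Mlh3, 1.08 for Hfm1 and 0.98 for Msh4. They were 0.76 for Prdm9 and 0.02 for Dmc1, and the negative difference of Msh5 shrank to -0.11. No call of these genes with oil changed. Fewer probes are tested under the filter and with single-gene probes, and the cause of the other changes was not tested.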
